A study of Homo sapiens with 4 samples.

Results

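Genes of oxidative phosphorylation were examined in A549 xenografts, tumors grown from a human non-small cell lung cancer line in mice. The genes were chosen by name: nuclear genes called NDUFA, NDUFB, NDUFC, NDUFS or NDUFV with a number, SDHA to SDHD, names that begin with UQCR or UQCC, COX with a digit, and ATP5F, ATP5M or ATP5P, together with the 13 protein-coding genes of mitochondrial DNA. This rule found 111 of the 38137 genes in the files, 98 of them nuclear and 13 mitochondrial. A further 13 look-alike names (readthrough genes, antisense and divergent transcripts, and the SDHAF assembly factors) were left out. The 98 nuclear genes comprised 36 genes of complex I, 4 of complex II, 9 of complex III, 17 of complex IV and 18 of complex V. They also included the related pair NDUFA4 and NDUFA4L2, and 12 assembly factors that the naming rule takes in. The mitochondrial genes encode 7 subunits of complex I, 1 of complex III, 3 of complex IV and 2 of complex V. Despite its name, NDUFA4 is known as a subunit of complex IV, so it and its paralog were kept apart from complex I.

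The study read 1 RNA library per group, and the 4 groups were an untreated control, aerobic exercise, radiation, and the combination of exercise and radiation. All tumors grew from A549 cells implanted in the flank of male BALB/c athymic nude mice aged 6 weeks, which lack T cells but keep other host cells. Irradiated tumors received 2 Gy per session, exercised mice ran on a treadmill at 8.0 m/min for 30 min, sessions were held 3 times a week for 2 weeks, and the combination received exercise before radiation on the same day. The study describes 5 mice per group and gives no number of tumors per library, so every ratio below compares single libraries, has no replicate check and carries no p-value. The gene counts summed to 34602535, 34304760, 35408705 and 33432637 reads. Here and wherever 4 values follow each other, their order is control, exercise, radiation and combination, and 3 ratios to control follow the same order. Levels are CPM, counts scaled to a common library total, after TMM scaling, a factor per library under which most genes have like levels. Folds carry exact 95% Clopper-Pearson intervals, which cover counting error only. Ratios cover the 19393 genes that averaged 20 or more reads, which kept all 13 mitochondrial genes and 92 of the 98 nuclear ones.

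Oxidative phosphorylation passes electrons from NADH through complex I, or from succinate through complex II, to complex III and on to oxygen at complex IV, and the proton gradient built on the way drives ATP synthesis by complex V. Complex II is built of nuclear subunits alone, whereas the other complexes combine nuclear subunits, imported from the cytosol, with subunits made inside the mitochondrion. Mitochondrial DNA is transcribed from both strands as long precursors that are cut at the transfer RNAs between genes. ND6 is the one protein-coding gene read from the opposite strand to the rest. In the nucleus, promoters of many respiratory genes are known to bind NRF1, the ETS-family factor GABP, YY1 and Sp1.

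The promoters of the nuclear members were searched for the letters that these factors are known to prefer, to show what the genes share beyond their names. Promoters from 250 bases before to 50 bases after the start were found for 80 of the 98 nuclear members in RefSeq (GRCh38.p14), and both strands were searched. The palindrome CGCATGCG, the centre of the letters read by NRF1, lay in 12 of 80 member promoters (15%) against 2.88% of all 15843 promoters of protein-coding genes of the same length. GCATGCG, which overlaps the palindrome, lay in 16 (20%) against 5.14%. CCGGAAG, the core bound by ETS factors, lay in 23 (28.75%) against 14.2%, and the YY1 letters AAGATGGCG lay in 10 (12.5%) against 2.74%. GGGCGG, bound by Sp1, lay in 57.5% of member promoters and 58.5% of all promoters, and TACGTG, read by hypoxia-inducible factors, lay in 3.75% against 3.23%. These shares are descriptions of letters, and a match is not a bound site. The 12 promoters with the palindrome belong to complexes I, II, IV and V and to assembly factors of complex IV, but not to complex III. Of these, 5 are shown, 1 each for complex I (NDUFS7), complex II (SDHD), complex IV (COX6A1), complex V (ATP5F1C) and an assembly factor (COX17). These genes have values below. Capitals mark the palindrome, and each stretch of 60 bases reads 5′ to 3′ on the strand of its gene. The last base printed lies 40 (NDUFS7), 75 (SDHD), 185 (COX6A1), 1 (ATP5F1C) and 81 (COX17) bases before the start.
NDUFS7 (chr19:1383808-1383867, plus strand): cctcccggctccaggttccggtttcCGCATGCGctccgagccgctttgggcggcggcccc
SDHD (chr11:112086739-112086798, plus strand): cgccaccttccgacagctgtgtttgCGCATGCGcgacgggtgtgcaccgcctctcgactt
COX6A1 (chr12:120437869-120437928, plus strand): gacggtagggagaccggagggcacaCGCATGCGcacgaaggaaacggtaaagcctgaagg
ATP5F1C (chr10:7788117-7788176, plus strand): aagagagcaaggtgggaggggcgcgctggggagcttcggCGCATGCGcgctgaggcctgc
COX17 (chr3:119677487-119677546, minus strand): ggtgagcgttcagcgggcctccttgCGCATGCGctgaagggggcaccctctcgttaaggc

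Taken as a sum, transcripts of the 13 mitochondrial genes were higher in all 3 treated libraries than in control. They took 5.42%, 6.62%, 6.23% and 6.36% of the reads, and their summed level was 52534, 65720, 63439 and 64973 CPM. The 98 nuclear genes together took 0.395%, 0.392%, 0.379% and 0.400%, and their summed level was 3828, 3895, 3860 and 4088 CPM. Mitochondrial reads therefore outnumbered nuclear reads 13.7, 16.9, 16.4 and 15.9 times. Reads across introns of nuclear genes were not placed by the aligner, so the size of this ratio is uncertain. The 3 treated libraries lay close together in this ratio, between 1.16 and 1.23 times control, whereas the combination was 0.967-fold of radiation alone and 0.942-fold of exercise alone. In bulk tumors, more transcript per cell and more cells of a kind rich in mitochondria cannot be told apart.

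Per kilobase of transcript, COX1, the catalytic subunit of complex IV that reduces oxygen, had the highest level of the 13 (median over the 4 libraries 15831 CPM per kb). ATP8 (10419 CPM per kb), COX3 (10088), ATP6 (7116) and COX2 (6283) followed, and thus the genes of complexes IV and V headed the order. The complex I genes ND4L (5542) and ND4 (4949) came next, then CYTB of complex III (2686), ND2 (2246), ND1 (2160), ND3 (1521), ND6 (1447) and ND5 (1215). COX1 lay above every other gene in each library. Over the 4 libraries, the ranges of neighbours in this order overlapped except at 3 steps, below COX1, below COX3 and below ND4. Within each library, COX2 lay above ND4L, CYTB above ND2, ND2 above ND1, ND1 above ND3, and ND6 above ND5. ATP8 (positions 8366 to 8572 of the mitochondrial genome) overlaps ATP6 (8527 to 9207), and ND4L (10470 to 10766) overlaps ND4 (10760 to 12137). Elsewhere in the files, an overlapping readthrough gene had nearly the same count as its partner (NDUFC2-KCTD14 had 1915 reads in control and NDUFC2 had 1891), so overlapping genes appear to share reads, and the levels of the short ATP8 and ND4L are uncertain. Among nuclear members, by length of all annotated exons, medians of the 5 complexes lay between 16.7 and 28.0 CPM per kb, and ATP5F1B, the catalytic beta subunit of ATP synthase, had the highest value at 205.5. Reads across introns were not placed, and gene lengths implied by the deposited values include introns for most members. Nuclear levels per kb are therefore uncertain and not on a like footing with mitochondrial ones.

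**Figure D1:**
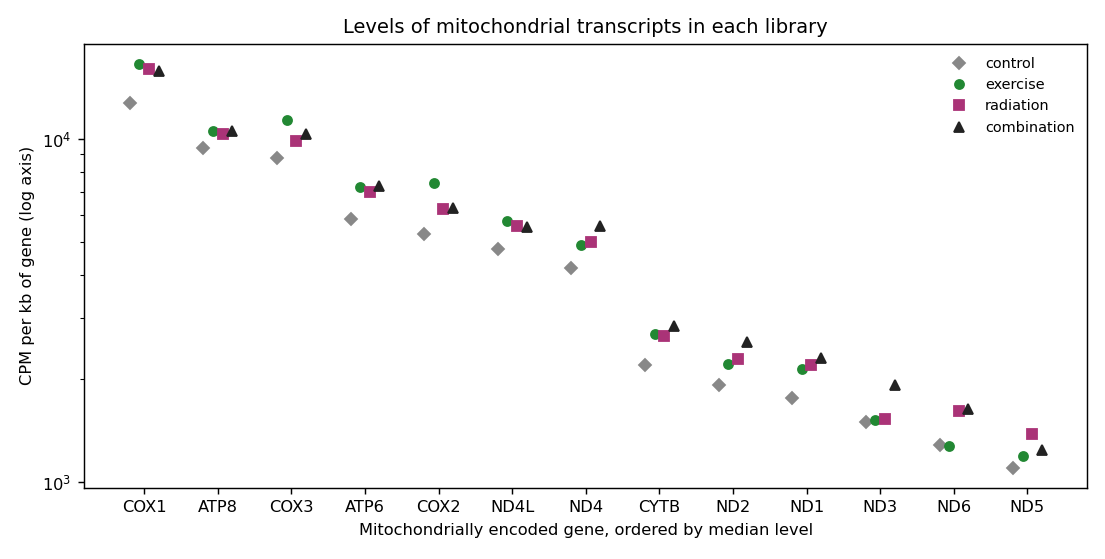
Level of each mitochondrially encoded gene in the 4 libraries, in CPM per kb of gene on a log axis, with genes ordered by their median. Each point is 1 library. COX1 is the highest gene in all 4 libraries, and the control library is the lowest point of every gene except ND6, where exercise lies just under it.

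With exercise, the 3 mitochondrial genes of complex IV stood highest against control. COX2, which carries the copper site that takes electrons from cytochrome c, had 3613, 5078, 4283 and 4312 CPM. Its exercise library was 1.41-fold of control (interval 1.40 to 1.42), the highest ratio of any mitochondrial gene in any comparison, and both irradiated libraries lay between these. COX1 had 19541, 25422, 24597 and 24225 CPM, 1.30-fold higher with exercise (1.30 to 1.31 by counting error). COX3, a structural subunit next to the catalytic core, had 6899, 8890, 7720 and 8099 CPM, 1.29-fold higher with exercise. All 3 were therefore highest with exercise alone and lowest in control.

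Complex I genes showed another order. ND2, a proton-pumping membrane subunit, had 1996, 2297, 2384 and 2658 CPM. ND4, another pumping subunit, had 5781, 6764, 6875 and 7690 CPM, and ND1, which borders the quinone site, had 1676, 2035, 2096 and 2194 CPM. The libraries ranked alike for these 3 genes, and the combination lay 1.33-fold, 1.33-fold and 1.31-fold of control. ND5 had 1996, 2151, 2499 and 2252 CPM and was highest with radiation alone, 1.252-fold of control (1.24 to 1.26). ND4L had 1416, 1716, 1651 and 1641 CPM, with the 3 treated libraries close together.

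ND3 and ND6 departed from the other genes. ND3, a small membrane subunit, had 518, 523 and 529 CPM in the first 3 libraries but 664 in the combination. Its folds against control were 1.01 with exercise (0.990 to 1.03), 1.02 with radiation (1.001 to 1.042) and 1.28 in the combination (1.26 to 1.31). When libraries were scaled by total reads, the first and second of these lay below control, at log2 ratios of -0.019 and -0.041. ND6, the gene of the opposite strand (14149 to 14673), had 673 and 668 CPM without radiation, and 845 and 857 with it. Its level thus split the libraries by radiation: 1.26-fold of control with radiation alone (1.23 to 1.28), 1.28-fold of exercise in the combination (1.26 to 1.31), and 0.992-fold of control with exercise (0.975 to 1.01). The strand setting of the counting is not given in the sources used here. Transcripts of the other strand may therefore be counted for ND6, so its level is uncertain, and this was not tested. ND5, ND6 and CYTB, neighbours on the map, did not share a pattern, since CYTB had 2508, 3084, 3045 and 3242 CPM and was higher in all 3 treated libraries.

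In complex V, ATP6, the proton channel subunit, had 3967, 4915, 4777 and 4964 CPM, 1.24-fold, 1.20-fold and 1.251-fold of control in the treated libraries. ATP8, a small accessory subunit, had 1949, 2176, 2138 and 2175 CPM, 1.12-fold, 1.097-fold and 1.12-fold of control. Although the pair lies on 1 shared transcript, the ratio of ATP6 to control was above that of ATP8 in each treated library.

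**Figure D2:**
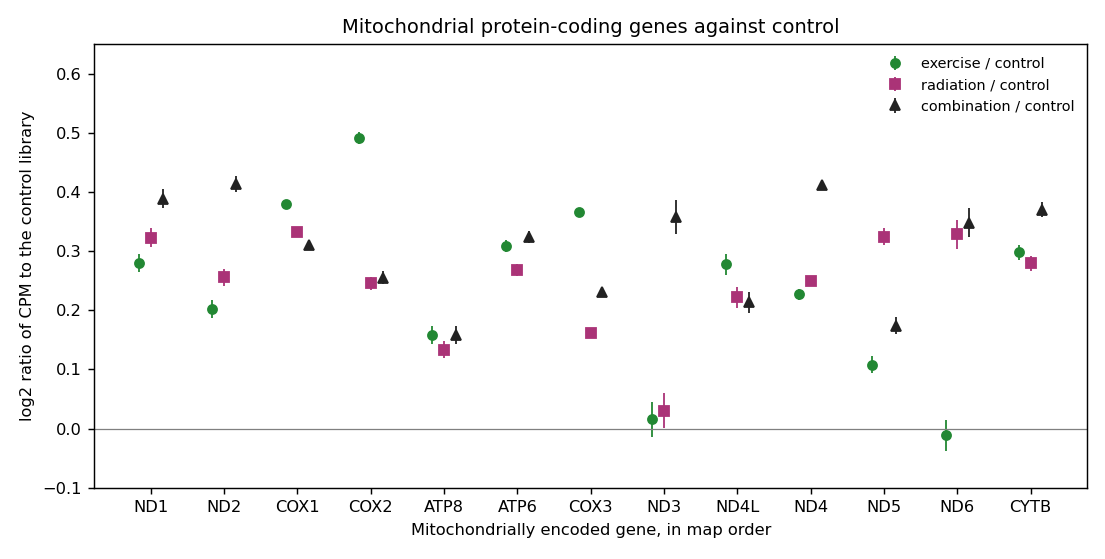
Log2 ratio of CPM to the control library for the 13 mitochondrially encoded genes in map order, for exercise, radiation and combination. Bars are 95% intervals of counting error and are often smaller than the symbol. COX2 with exercise is the highest point, ND3 with exercise and radiation and ND6 with exercise lie near 0, and all other points are above 0.1.

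Against control, the median log2 ratio of the 13 mitochondrial genes was 0.28 (exercise), 0.26 (radiation) and 0.32 (combination), and 12, 13 and 13 of 13 lay above 0, against 50.4%, 50.1% and 47.8% of all 19393 genes. Members were counted as higher from 25% above the other library and as lower from 20% below it, the same distance on the log scale. By that mark 3, 4 and 7 of 13 were higher and 0 lower, while 9.94%, 13.6% and 14.8% of all genes were higher in the same comparisons. The combination differed little from the single treatments: the median was 0.055 against radiation and 0.066 against exercise, with 10 and 8 of 13 genes above 0. Against radiation, ND3 was 1.26-fold higher (1.23 to 1.28) and was the one gene past 25%. Against exercise, ND6 and ND3 were 1.28-fold and 1.27-fold higher, whereas COX2 was 0.849-fold (0.843 to 0.855) and COX3 0.911-fold (0.906 to 0.916). The 3 comparisons with control share that library, so they are not independent of each other.

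Nuclear members lay near control in the single treatments. Their median log2 ratio over the 92 compared was 0.022 with exercise and 0.0067 with radiation, with 53 and 47 of 92 above 0, against medians of 0.0016 and 0.00071 over all genes, and scaling by total reads put both below 0 (-0.013 and -0.065). In the combination the median was 0.092 against control, 0.10 against radiation and 0.098 against exercise, with 70, 75 and 64 of 92 above 0, whereas 47.8%, 50.1% and 47.8% of all genes lay above 0. By the same mark, 4 nuclear members were higher and 2 lower with exercise, against 9.94% and 9.37% of all genes. With radiation 3 were higher and 1 lower, against 13.6% and 12% of all genes. In the combination against control, 9 were higher and 1 lower, against 14.8% and 16.5%. Against radiation 4 were higher and 0 lower (7.56% and 12.1% of all genes), and against exercise 5 were higher and 0 lower (16.9% and 18.9%). The count of 9 of 92 in the combination is thus no larger a share than the background, and in the other comparisons nuclear members passed the mark in smaller shares than genes at large, many of which have fewer reads. At 2-fold, the difference used by the study, 0 of the compared members of either genome were higher or lower in any of the 5 comparisons. Of all genes, 0.83%, 1.89% and 2.27% were 2-fold higher and 0.701%, 0.897% and 1.77% lower than control with exercise, radiation and both. In the combination, 0.418% were 2-fold higher and 0.887% lower than radiation, and 2.92% higher and 3.06% lower than exercise.

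The mitochondrial median exceeded the nuclear one by 0.26 (exercise), 0.25 (radiation) and 0.23 (combination) against control, on the log2 scale. Between the combination and the single treatments the difference was -0.047 against radiation and -0.032 against exercise. These differences do not depend on the scaling factor of a library, which acts on both genomes alike. Counts of members do depend on it: with libraries scaled by total reads, 0 members of either genome were at least 25% higher with radiation and 5 were lower (7 and 1 after TMM), and 6 in place of 16 were higher in the combination against control. Under that scaling the median of all genes was -0.090 in the combination against control, compared with -0.015 after TMM.

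**Figure D3:**
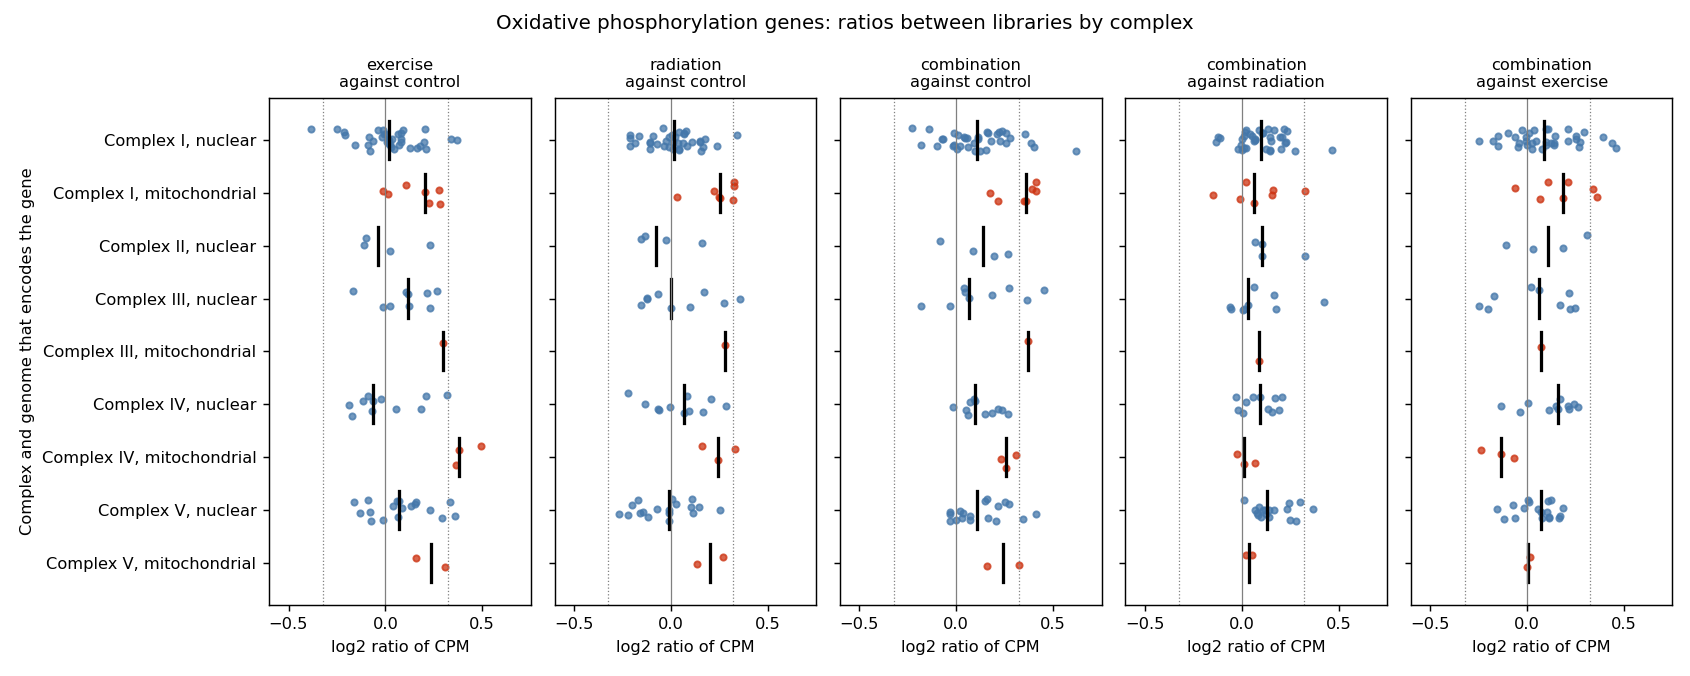
Log2 ratios of CPM between libraries for each compared member, by complex and by genome, in 5 comparisons. Blue points are nuclear genes, red points mitochondrial genes, black bars medians, and dotted lines mark 25% higher and 20% lower. Assembly factors, NDUFA4 and NDUFA4L2 are not drawn, and the red medians lie to the right of the blue ones in all 3 comparisons with control.

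In complex I, the 36 nuclear subunits had medians of 0.021 (exercise), 0.018 (radiation) and 0.10 (combination) against control. The 7 core subunits, which hold the flavin, the iron-sulfur clusters and the quinone site, had medians of 0.030, -0.036 and -0.014, and the 29 accessory subunits 0.020, 0.039 and 0.11. NDUFB3, an accessory subunit of the membrane arm (chromosome 2, 201072001 to 201085750), had 300, 325, 325 and 423 reads. In the combination it was 1.54-fold of control (1.32 to 1.79), the highest ratio of the nuclear members there, and 1.38-fold of radiation (1.19 to 1.602). The combination thus stood apart, and the other 3 libraries lay within counting error of each other.

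Other complex I subunits followed different orders. NDUFS5, an accessory subunit, had 742, 927, 812 and 900 reads, and was 1.29-fold (1.17 to 1.42) and 1.32-fold (1.20 to 1.46) of control in the libraries with exercise. NDUFS8, a core subunit that carries iron-sulfur clusters, had 1239, 1355, 1424 and 1484 reads and was 1.31-fold of control in the combination (1.21 to 1.41). NDUFS7, a core subunit at the quinone site, had 469, 574, 507 and 482 reads and was 1.26-fold higher with exercise (1.12 to 1.43), but not in the combination (1.12-fold, 0.985 to 1.27). All 3 lay above control in each treated library. In the other direction, NDUFB1 had 396, 294, 333 and 366 reads and was 0.767-fold of control with exercise (0.658 to 0.894), while the combination was 1.01-fold of control (0.872 to 1.165). NDUFV2, a core subunit of the NADH-oxidizing arm, had 1552, 1298, 1328 and 1254 reads, 0.864-fold, 0.879-fold and 0.881-fold of control. NDUFB7 had 1455, 1184, 1225 and 1209 reads, 0.841-fold, 0.864-fold and 0.906-fold of control. NDUFA10 had 2691, 2638, 2435 and 2106 reads, and its log2 ratio of -0.23 was the lowest of complex I in the combination against control. Counts of NDUFA3 and NDUFA6 are less certain, since their deposited FPKM imply lengths 10.1 and 5.0 times the gene span. The same limit applies to the core subunits NDUFS1 and NDUFS3, at 2.0 times the span. In complex III it applies to UQCRC2 (2.0 times) and UQCRHL (1.95 times).

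Complex II oxidizes succinate and links the citric acid cycle to respiration. Its catalytic flavoprotein SDHA had 2401, 2729, 2615 and 2646 reads, 1.17-fold, 1.12-fold and 1.20-fold of control after scaling. The iron-sulfur subunit SDHB had 908, 893, 795 and 786 reads, 0.899-fold of control with radiation (0.816 to 0.990) and 0.944-fold in the combination (0.857 to 1.04). Of the membrane anchors, SDHC had 2301, 2075, 2206 and 2237 reads, and SDHD, whose promoter is printed above, had 873, 782, 775 and 917. In the combination SDHD was 1.26-fold of radiation (1.14 to 1.38) and 1.24-fold of exercise (1.12 to 1.36). The 4 genes therefore did not move together against control. In the combination all 4 lay above radiation alone (median 0.10), as did 75 of the 92 nuclear members and 50.1% of all genes. For SDHB the interval of that ratio included 1 (0.950 to 1.16).

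The 9 nuclear genes of complex III had medians of 0.12 (exercise), -0.0015 (radiation) and 0.064 (combination). UQCR10, a small structural subunit (chromosome 22, 29767369 to 29770413), had 831, 943, 978 and 1042 reads, and was 1.37-fold of control in the combination (1.247 to 1.499). UQCRQ, a subunit that contacts cytochrome b, had 1917, 2013, 2388 and 2261 reads and was 1.28-fold of control with radiation (1.20 to 1.36) and 1.29-fold in the combination (1.21 to 1.37). Both irradiated libraries were thus the higher ones for UQCRQ, while UQCR10 was above control in all 3. UQCRB had 1087, 1131, 953 and 1204 reads, with radiation the lowest library, and the combination was 1.34-fold of radiation (1.23 to 1.46). UQCRC1, a core protein of the matrix side, had 1624, 1889, 1580 and 1557 reads and stood out with exercise alone, at 1.20-fold (1.12 to 1.29). UQCRH had 764, 733, 684 and 618 reads and its intronless near-copy UQCRHL 1402, 1577, 1306 and 1258, so the split of reads between the 2 genes is uncertain. UQCRFS1, the Rieske iron-sulfur protein, had 3134, 3301, 3434 and 3262 reads with log2 ratios to control between 0.12 and 0.18.

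For complex IV, 11 of 17 nuclear genes were compared, with medians of -0.063, 0.067 and 0.095 against control. These are far below those of the 3 mitochondrial subunits of the same enzyme (0.38, 0.25 and 0.26). COX5B, a zinc-binding subunit on the matrix side, had 1243, 1501, 1356 and 1297 reads, and its ratio with exercise was 1.248 (1.16 to 1.35). COX7A2, the ubiquitous form of subunit VIIa, had 740, 743, 879 and 818 reads and was 1.22-fold higher with radiation (1.105 to 1.35) and 1.20-fold in the combination (1.09 to 1.33). COX5B was thus highest with exercise and COX7A2 in the irradiated libraries. COX7C had 1334, 1134, 1113 and 1209 reads, below control in both single treatments (0.879-fold and 0.857-fold) and at 0.988-fold in the combination. COX4I1, a regulatory subunit, had 3584, 3941, 3722 and 3646 reads, within 1.14-fold of control throughout. NDUFA4 had 1037, 1040, 966 and 1048 reads.

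The 18 nuclear genes of complex V had medians of 0.069 (exercise), -0.0097 (radiation) and 0.11 (combination). Against radiation alone, all 18 lay above 0 in the combination, against 50.1% of all genes, with a median of 0.13 and a range of 0.014 to 0.37, although 1 alone passed 25%. This was ATP5MC3, 1 of the genes for the c subunit of the rotor, with 1527, 1539, 1293 and 1571 reads, the combination at 1.29-fold of radiation (1.20 to 1.39). Radiation alone was the low library for this gene. ATP5PO, a subunit of the stator stalk, had 15.4, 18.8, 16.6 and 20.5 CPM and was 1.33-fold of control in the combination (1.19 to 1.49). ATP5F1D, the delta subunit of the central stalk, had 540, 658, 627 and 628 reads, 1.26-fold (1.12 to 1.41), 1.19-fold (1.06 to 1.34) and 1.27-fold (1.13 to 1.42) of control. ATP5MC1, another c-subunit gene, had 461, 573, 482 and 487 reads and was higher with exercise alone, 1.28-fold (1.13 to 1.46). The most abundant nuclear member, ATP5F1B, had 13040, 13260, 12944 and 13236 reads, between 1.02-fold and 1.11-fold of control. ATP5F1C, the gamma subunit of the central stalk, whose promoter is printed above, had 2399, 2206, 2115 and 2199 reads, with radiation at 0.905-fold of control (0.853 to 0.960) and the combination level with control (interval 0.943 to 1.06). ATP5MGL shares most of its sequence with ATP5MG, and their separate counts are uncertain.

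Among the 12 assembly factors within the naming rule, UQCC2, needed for making cytochrome b, had 718, 586, 540 and 505 reads. It was 0.843-fold (0.755 to 0.942), 0.772-fold (0.689 to 0.865) and 0.767-fold (0.683 to 0.861) of control, the lowest nuclear ratio in both irradiated libraries among the 92 compared. CYTB, whose protein it serves, was above control in the same libraries. COX14, which acts with newly made COX1 protein, had 851, 754, 1046 and 994 reads, and was higher with radiation (1.26-fold, 1.15 to 1.38) and in the combination (1.27-fold, 1.16 to 1.40). The combination was 1.39-fold of exercise alone for COX14 (1.26 to 1.53). COX10, which makes heme for complex IV, had 749, 781, 737 and 617 reads and was the lowest nuclear member in the combination against radiation (0.889-fold, 0.798 to 0.991). COX17, a copper carrier, had 516, 465, 544 and 495 reads, and COX18, which inserts COX2 protein in the membrane, had 599, 583, 662 and 615. COX14 and UQCC2 were the 2 of 12 assembly factors past the 25% and 20% marks against control. Of all genes, 13.6% were higher and 12% lower with radiation, and 14.8% and 16.5% in the combination.

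Isoforms known from particular tissues were rare or not detected. COX6A2, the form of subunit VIa of heart and skeletal muscle, had 0 reads in all 4 libraries, which allows up to 3 reads each, or 0.0840 to 0.0916 CPM. Its ubiquitous partner COX6A1 had 1854, 1765, 1892 and 2005 reads. COX4I2, the form of COX4 known from lung and low oxygen, had 2, 0, 1 and 0 reads, and no fold is given. COX7B2 had 2, 3, 5 and 2 reads, and COX8C, a form known from testis, had 1, 1, 2 and 2, against 2246, 2081, 2314 and 2135 for COX8A. COX6B2, also known from testis, had 13, 14, 11 and 18 reads, against 2364, 2182, 2298 and 2309 for COX6B1. COX7A1, the form of heart and skeletal muscle, had 24, 18, 16 and 9 reads, a mean under the minimum for comparison, and the combination was 0.409-fold of control (0.167 to 0.911). NDUFA4L2, known as induced under low oxygen, had 27, 16, 24 and 26 reads, and its interval with exercise (0.308 to 1.18) includes 1. Low counts thus leave the ratios of these isoforms open to a wide counting error, and the common forms carried nearly all reads.

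**Figure D4:**
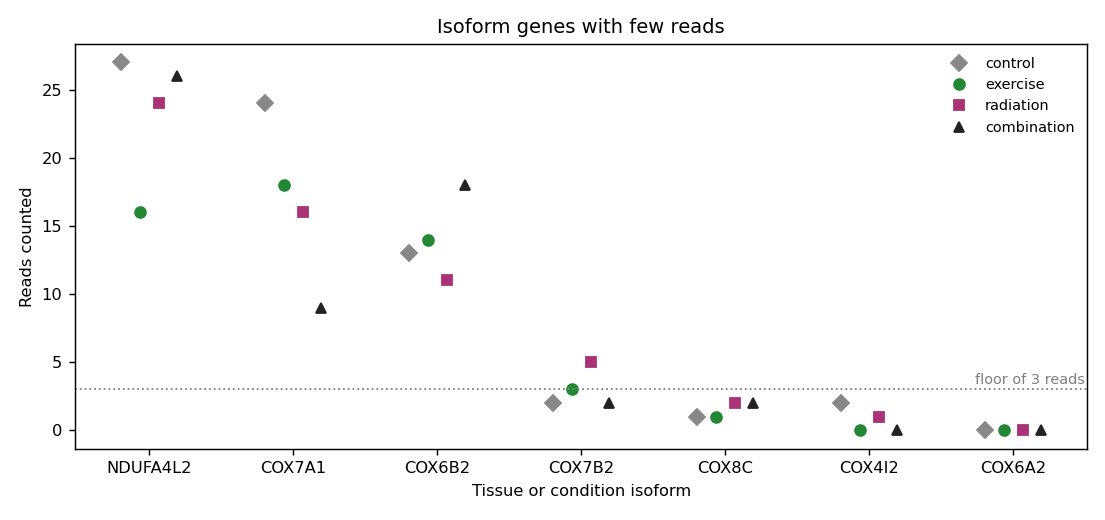
Reads of the 7 tissue or condition isoforms in each library. Each point is 1 library and the dotted line is the floor of 3 reads allowed by a count of 0. NDUFA4L2, COX7A1 and COX6B2 lie above the floor in every library, and COX6A2 has no reads in any.

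Each treatment can be seen in 2 pairs of libraries that share none: exercise against control with combination against radiation, and radiation against control with combination against exercise. For exercise, the nuclear members did not line up between the pairs (Pearson r = -0.0067, Spearman rho = 0.017, across 92 genes), and 8 were at least 1.1-fold higher in both and 0 lower in both. The 8 were NDUFS5, NDUFB3, NDUFC1 and NDUFS8 of complex I, UQCR10 of complex III, and ATP5PD, ATP5PF and ATP5PO, which belong to the peripheral stalk of complex V. Over all 19393 genes r was 0.046, with 1292 higher and 1592 lower in both. The 8 of 92 were thus a share near that of all genes. For radiation, the nuclear r was 0.20 (rho 0.20), against 0.59 (rho 0.47) over all genes, and 9 nuclear members were at least 1.1-fold higher in both pairs and 0 lower: NDUFB3, NDUFA8, NDUFS8, UQCRQ, UQCR10, COX7A2, COX14, COX15 and COX18. Over all genes 3258 were higher and 3224 lower in both, so the 9 of 92 were a smaller share than that of all genes. The correlations are across genes, which share libraries and are not independent, and they are given as descriptions.

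The mitochondrial genes were higher in the first pair of each treatment and near even in the second. For exercise, their median was 0.28 without radiation and 0.055 with it. ND2 and ND4, 2 of 13, were at least 1.1-fold higher in both pairs, against 1292 of all 19393 genes. For radiation, the median was 0.26 without exercise and 0.066 with it. ND2, ND4 and ND6, 3 of 13, were at least 1.1-fold higher in both, against 3258 of all 19393 genes. Both first pairs are set against the control library, which had the lowest mitochondrial share of the 4. With 1 control library, a low control and a rise under each treatment cannot be told apart.

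**Figure D5:**
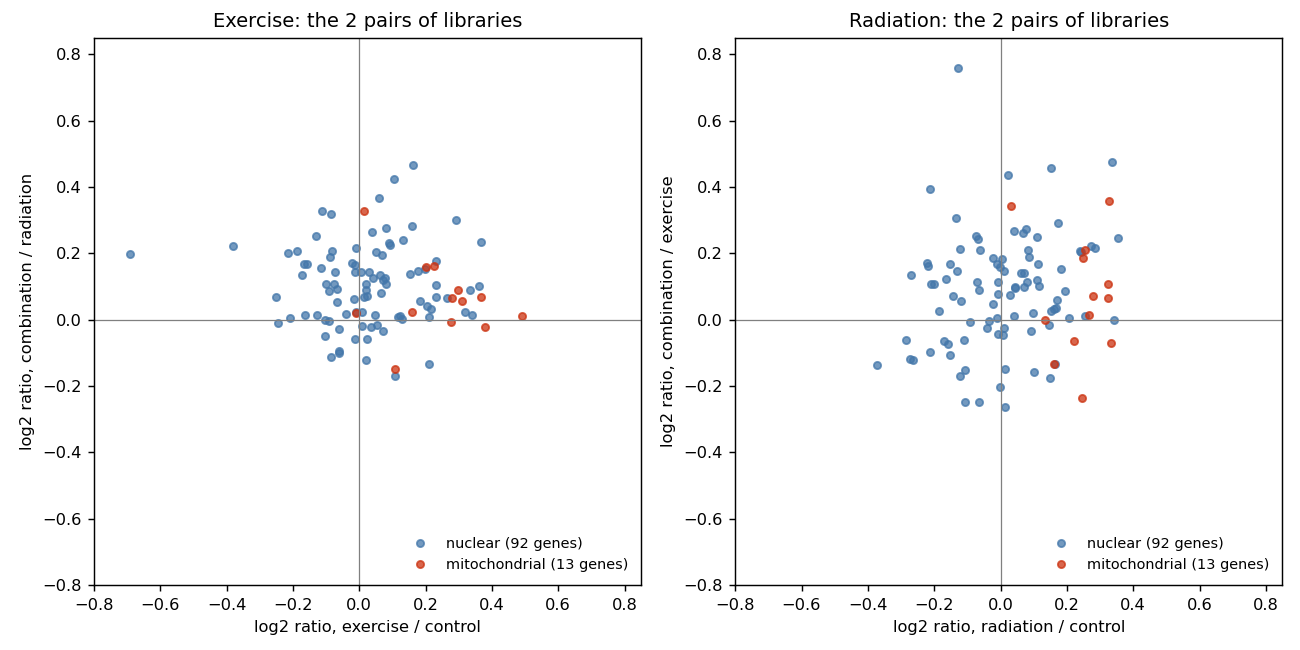
Log2 ratios of each member in 2 pairs of libraries that share none, for exercise (left) and radiation (right). Blue points are 92 nuclear genes and red points 13 mitochondrial genes. Apart from ND6 with exercise (-0.011), the red points lie to the right of 0 on the horizontal axis, but spread around 0 on the vertical axis, and the blue cloud has no slope for exercise.

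Other genes of the pathway were counted from lists of known factors. Of 19 complex I assembly factors, 0, 2 and 3 were at least 25% higher than control with exercise, radiation and both (background 9.94%, 13.6% and 14.8%), and 0 were 20% lower. NDUFAF6 had 2038, 2218, 4239 and 3986 reads, and both irradiated libraries had a log2 ratio of 1.09 to control. NDUFAF8 had 514, 563, 690 and 817 reads. Both genes were highest in the irradiated libraries. The 25 assembly factors of complexes II to V outside the rule had medians of -0.012, -0.0032 and 0.10 against control, near those of the nuclear subunits. The 5 other subunits or carriers (among them cytochrome c, CYCS, with 2442, 2637, 2221 and 2547 reads) had none past the marks against control. Of all genes, 9.94%, 13.6% and 14.8% were higher and 9.37%, 12% and 16.5% lower in those comparisons.

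Genes that make, copy and process mitochondrial RNA and DNA did not follow the level of mitochondrial transcripts. The 9 genes of mitochondrial transcription had medians of -0.073 (exercise), -0.13 (radiation) and -0.17 (combination). TFAM, which packs and transcribes mitochondrial DNA, had 1462, 1377, 1255 and 1159 reads, and POLRMT, the RNA polymerase, had 683, 750, 610 and 574. The log2 ratios of TFAM to control were -0.04, -0.18 and -0.21. POLRMT was the highest of the 9 with exercise, at a log2 ratio of 0.18. With exercise 3 of the 9 lay above 0, against 50.4% of all genes. The 17 genes of RNA processing and stability had medians of 0.00027, -0.12 and -0.051, with LRPPRC, which holds mitochondrial messengers stable, at 4062, 3916, 3447 and 3494 reads. The 12 genes of mitochondrial DNA replication had medians of 0.015, -0.10 and -0.13. RRM2B, a p53 target that supplies deoxynucleotides, stood highest of them with radiation, with 1109, 1001, 1890 and 1975 reads and log2 ratios to control of 0.81 and 0.96 in the irradiated libraries.

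The 12 regulators of mitochondrial biogenesis had medians of 0.049 (exercise), -0.11 (radiation) and -0.20 (combination). PPARGC1A, the coactivator known to drive biogenesis in exercised muscle, had few reads (72, 65, 25 and 50). PPARGC1B had 262, 229, 244 and 118 reads, and its log2 ratio in the combination was -1.02 against control. NRF1, whose letters are shared by the promoters above, had 1580, 1660, 1585 and 1311 reads, and MYC had 3495, 3774, 2466 and 2592. GABPB2, a subunit of GABP, had 754, 669, 720 and 785 reads, a log2 ratio in the combination of 0.18 against control and 0.31 against exercise. In each treated library 1 of 12 was at least 25% higher than control, each time ESRRG (log2 ratios 0.69, 0.86 and 0.33), against 9.94%, 13.6% and 14.8% of all genes. At least 20% lower were 0, 3 and 4, against 9.37%, 12% and 16.5%. In the combination against exercise, 0 were higher and 5 lower (16.9% and 18.9%).

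Of 12 genes through which low oxygen acts on respiration, 0, 8 and 9 were at least 25% higher than control with exercise, radiation and both (background 9.94%, 13.6% and 14.8%). CA9, a marker of low oxygen, had 1384, 1246, 2427 and 3032 reads, EGLN3 3533, 3589, 6632 and 7251, and PDK1, which closes pyruvate entry into mitochondria, 1058, 1067, 1548 and 1231. CA9, EGLN3 and PDK1 split the libraries by radiation. Mitochondrial transcripts as a sum were higher with exercise too, although ND6 was not and ND3 lay near control. A link between these patterns was not tested. Of 12 genes for supercomplexes, carriers and uncoupling, UCP2 was the highest with radiation (1707, 1502, 2752 and 2481 reads).

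The 24 ribosomal and transfer RNAs of mitochondrial DNA summed to 8914, 9724, 9462 and 9932 CPM, above control in each treated library, most of it from RNR2. Their median log2 ratio to control was -0.21 (exercise), 0.081 (radiation) and -0.0014 (combination). The exercise median came with 2 at least 25% higher and 10 at least 20% lower than control (9.94% and 9.37% of all genes), whereas in the combination against exercise the median was 0.35, with 14 higher and 3 lower (16.9% and 18.9%). RNR1 and RNR2, the ribosomal RNAs, had 29205, 29892, 32497 and 29391 reads and 246103, 268858, 253892 and 250047 reads. TRNN, a transfer RNA of the opposite strand, had 1458, 798, 1061 and 1529 reads. The transfer RNA genes are short, their counts in polyA-selected RNA come with those of longer precursors, and the strand setting of the counting is not given in the sources used here.

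Several measures of the libraries moved alongside these results, and their part in them was not tested. RNA18SN1, a nuclear ribosomal RNA that polyA selection should remove, had 16589, 7995, 20649 and 12127 reads, and RN7SL1, a short cytosolic RNA, had 2612, 733, 1422 and 1086. The 18 skeletal muscle markers summed to 52.0, 51.2, 96.6 and 97.5 CPM, with 4, 3, 0 and 0 of them at 0 (MYH1, MYH2, MYH7 and TNNT3 in control, TNNT3, MYLPF and MYL1 with exercise), so the sum was higher in both irradiated libraries and near control with exercise. With exercise, the median log2 ratio of the 14 markers compared was nevertheless 0.60. MYH1 and MYH2 reached the minimum mean of 20 reads only through the irradiated libraries, so no count of markers is set against all genes. MYH1 had 0, 11, 278 and 258 reads and MYH2 had 0, 14, 183 and 284. The 9 macrophage markers summed to 369, 358, 427 and 491 CPM with 2 (C1QA and C1QB) at 0 in each library, 8 fibroblast markers to 329, 336, 216 and 186 CPM, 5 endothelial markers to 19.8, 15.9, 10.9 and 6.90 CPM, and 5 adipocyte markers to 10.7, 9.32, 11.2 and 14.2 CPM, with ADIPOQ at 0 in control and FABP4 at 0 in both irradiated libraries. The 12 epithelial markers of A549 cells, none of them at 0, summed to 15825, 16678, 16185 and 16700 CPM, so markers of the labelled cell line were present throughout. Mouse reads were counted where they match a human gene, and how many did so is not given in the sources used here.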

How the data were processed

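RNA of A549 xenografts was analysed as 1 library for each of 4 groups, placed in groups by the sample labels. Tumor RNA was polyA-selected and prepared with a stranded kit. Before deposit the authors trimmed the reads, for which cutadapt is named in the submitters' processing notes, and aligned to GRCh38 with Bowtie2 2.3.4.1, which does not place reads across introns, and counted them with featureCounts 1.6.0. For each library the authors deposited raw counts of reads per gene and FPKM values whose implied gene length includes introns for most members. Counts were used for all results, and FPKM for 1 alternative and the lengths. TMM factors (edgeR 4.0.16, R 4.3.3), computed over genes with a mean of at least 20 reads, gave CPM, and a prior of 0.5 counts entered log2 ratios but not folds. With 1 library per group no test was run. Intervals and the floor of 3 counts cover counting error only. The marks of 25% higher and 20% lower were chosen for description, and 2-fold is the study's. Members were matched to RefSeq by symbol (109) or synonym (2). A RefSeq pseudogene carries the name of 53 nuclear members, and reads from it cannot be told apart. Members and lists were chosen with earlier results of these data known. Any member could be named, and in depth were given the mitochondrial genes, SDH genes, isoforms with their partners and, in part, the 3 highest and 3 lowest members of each complex. Of the other lists, the 2 highest and 2 lowest genes could be named. Of genes that are no members, named outside that rule, after their values were seen, were TFAM, LRPPRC, RNR1, RNR2, RNA18SN1, RN7SL1 and NDUFC2-KCTD14. The steps were run on simulated counts that held counting error alone, so this run says nothing about spread between tumors or libraries. Tables and figures were made in python 3.11.15 with scipy 1.17.1 (intervals), pandas 2.3.3, numpy 2.4.6 and matplotlib 3.10.9.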

Additional observations from a re-analysis of the deposited data

Results flagged for a closer look

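Members that lay at least 1.1-fold apart in opposite directions in both library pairs of a treatment, with counting intervals that exclude 1, were marked, and in no case was the difference between the pairs tested. For exercise these were NDUFB1, below control with exercise alone and above radiation in the combination (the second log2 ratio exceeded the first by 0.60), NDUFB5 (0.41), COX7C (0.39), UQCR11 (0.34) and NDUFB6 (0.33). Of these 5, 3 belong to complex I, 1 to complex III and 1 to complex IV. All were lower with exercise alone and higher when exercise was added to radiation. The share of all genes that this rule would mark was not counted, so it is not known whether these numbers are unusual. For radiation the same difference of 0.39 marked COX7C, and UQCRB was marked with 0.32, both lower with radiation alone and higher in the combination against exercise. COX2 of the mitochondrial genome went the other way, higher with radiation alone and lower in the combination against exercise, with a difference of -0.48. For any gene the difference is the same number for both treatments, since it rests on the same 4 libraries.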

How the results depend on the processing

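No paired analysis was possible because each group has 1 library, so the groups share fewer than 2 replicate numbers. An additive fit of exercise and radiation over the 4 libraries was not run. The excess of the mitochondrial over the nuclear median kept its sign under all alternatives run. Other library scalings could hardly change it, since a library factor acts on both genomes alike, so they are no check of it. Against control the excess was 0.22 to 0.27 with exercise, 0.24 to 0.29 with radiation and 0.20 to 0.26 in the combination. In the combination it was -0.052 to -0.023 against radiation and -0.038 to -0.019 against exercise. Shifts of medians were judged against the median half-width of the counting intervals of single members, combined over both genomes for the excess. This width is not the counting error of a median. The excess stayed within it throughout. The nuclear median against control changed sign with exercise (-0.013 with total-count scaling, -0.012 from FPKM) and with radiation (-0.065 and -0.063, -0.0021 without assembly factors, -0.039 without members that have a named pseudogene). The mitochondrial median moved by more than the median half-width for single mitochondrial members as follows. With total-count scaling or FPKM it was 0.24 (exercise), 0.18 or 0.185 (radiation) and 0.25 (combination) against control, and 0.026 in the combination against exercise. As a mean it was 0.24 (exercise) and 0.30 (combination). With median-of-ratios scaling it was 0.34 in the combination against control and 0.073 against radiation, and without the overlapping ATP8, ATP6, ND4L and ND4 it was 0.28 (radiation) and 0.35 (combination). Members at least 25% higher numbered 4 from FPKM with exercise (7 in the report), 0 from total-count scaling or FPKM with radiation (7), and 6 and 4 in the combination against control (16). At 1.5-fold they numbered 0, 0, 1, 0 and 1 in the 5 comparisons, and without members that have a named pseudogene 2 against radiation (5) and 4 against exercise (7). Members at least 20% lower numbered 4, 3, 3, 3 and 2 with no minimum count (2, 1, 1, 0 and 0 in the report). Lower members numbered 5 with radiation under total-count scaling or FPKM, and 0 with radiation and in the combination against control at 1.5-fold or without assembly factors. With exercise 1 was lower at 1.5-fold, at a mean of at least 100 reads, or without named pseudogenes. Of values for single genes, 401 stayed within counting error and 79 did not. Adding pseudogene counts gave no value, since the files hold 0 such rows named after a member. Chosen after seeing the data were adding the reads of UQCRHL and ATP5MGL to their parents, leaving out members with a longer FPKM length or a named pseudogene, and leaving out overlapping mitochondrial genes. Depth limited the isoforms with under 20 reads, and no replicate error could be estimated for any ratio.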
